A study of Sus scrofa with 13 samples.

Results

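Transcript levels in the longissimus dorsi, a long back muscle, were compared between Piau and crossbred pig fetuses at day 40 of gestation. The comparison was made directly on the 3 of 13 arrays that carried a Piau sample and a crossbred sample of that age, chosen by the sample names and ages in the labels. Piau is a local Brazilian breed, and the crossbreds were Yorkshire x Landrace. The day 40 groups held 4 Piau litters and 3 crossbred litters, each from another gilt, with the RNA of 3 fetuses of a litter pooled. The series also held 4 Piau and 3 crossbred litters at day 70. Before labelling, RNA of both breeds went through the same linear amplification, primed on the poly(A) tail. Piau RNA came from a silica column with DNase digestion and crossbred RNA from a phenol-based reagent and a larger piece of tissue, so in every value below the breed cannot be told apart from the extraction.

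Skeletal muscle forms in the fetus when myoblasts, committed by transcription factors such as MYOD1, leave the cell cycle and fuse into fibres. A first set of primary fibres is laid down early, and secondary fibres later form along them. Muscle at this stage is mixed with connective tissue, vessels, blood and nearby cartilage, whose RNA enters the same extract.

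The arrays were dual-colour and carried spotted oligonucleotides (70-mers). Each array gave 1 normalised log ratio per probe, here read as log2, for 20736 probes. A ratio has no level in it, so whether muscle markers were abundant could not be checked. The array of Piau pool 148 against crossbred pool 69-4 and that of Piau 241 against crossbred 3 had Piau in Cy5, and the array of Piau 489 against crossbred 56-1 had Piau in Cy3. The mean of 12 arrays that formed 3 closed loops was subtracted from each probe as its dye effect, since every pool on these arrays was labelled once with each dye. The sources used here do not say which dye is the numerator. Values are Piau minus crossbred for ratios of Cy5 over Cy3, and have the reverse sign throughout for ratios of Cy3 over Cy5. Sides are therefore described relative to named genes. If the logarithm was natural, the printed values are natural logs, the tests do not change and every fold is larger.

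The 3 direct arrays did not resemble each other equally. With the dye effect removed, the arrays of Piau 148 and Piau 489 correlated at 0.75 across probes, while the array of Piau 241 correlated with them at 0.50 and 0.54. As deposited, dye effect included, the arrays of Piau 148 and Piau 241, which shared the dye orientation, correlated at 0.66, and that of Piau 489 correlated with them at 0.34 and 0.19 once turned to the same direction. These are descriptions across 20736 probes that share arrays and dye estimate. An absolute value of at least 2 on the same side was found for 28 probes on the arrays of Piau 148 and Piau 489, and 8 of these were under 0.5 in size on the array of Piau 241. The corresponding number for the 2 other choices of a pair of arrays was 0 of 10 and 0 of 8. For some of the genes below, values are given with and without the loop of pools 241 and 3.

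**Figure D1:**
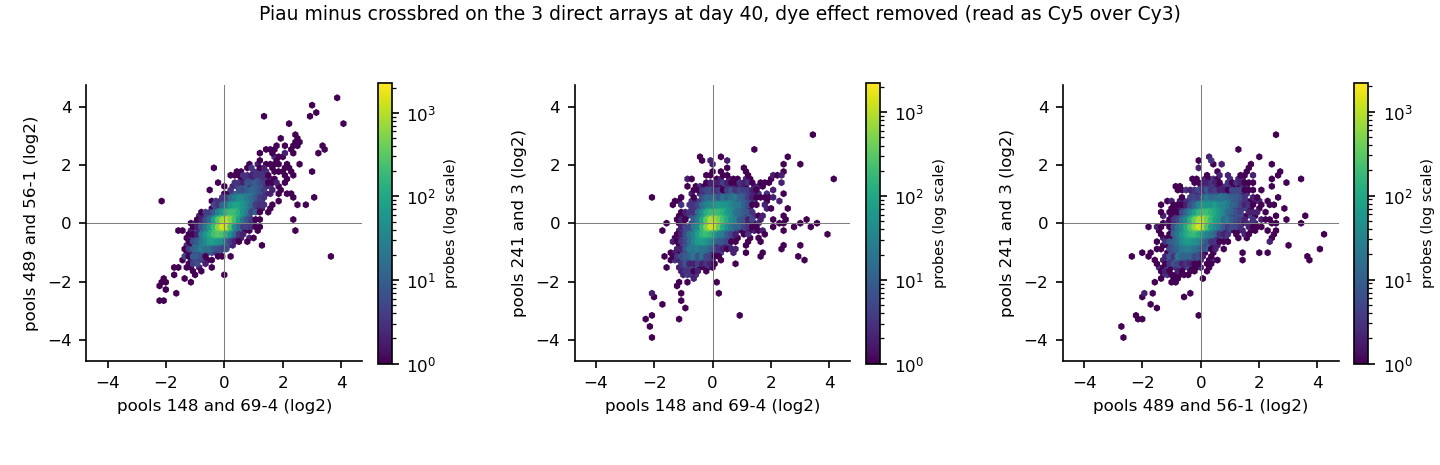
Piau minus crossbred log2 ratios of all 20736 probes at day 40, each direct array against another, with the dye effect removed. Colour gives the number of probes per hexagon on a log scale. Probes lie along the diagonal for pools 148 and 69-4 against pools 489 and 56-1 (r = 0.75), and some of them lie near 0 for pools 241 and 3 (r = 0.50 and 0.54).

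Breed differences were tested in 1 limma fit to all 13 arrays, with breed and age groups, a dye term and a random effect of litter pool, and Benjamini-Hochberg adjustment over all probes. At day 40, 4100 probes (19.8%) passed the threshold of 0.05. They divided into 2122 on the positive side (10.2%) and 1978 on the negative side (9.54%). Most differences were small: the median size among the calls was 0.47, 1809 reached 0.5, 269 reached 1 and 18 reached 2. Of the 4100, 4037 had 1 sign on all 3 direct arrays, as had 47.8% of all probes. The direct arrays entered the fit, so this count is no separate evidence.

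Only 178 of the probes, for 175 genes, carried a gene symbol in the platform annotation. Of these, 15 passed (8.43%, against 19.8% of all probes), 9 on the positive side and 6 on the negative side. All 15 had 1 sign on the 3 direct arrays, where 59 of the 178 did. The same 2 pools could also be compared through the 3 other arrays of their loop, which gives a second value per loop from other hybridisations of the same RNA. All 3 direct and all 3 indirect values shared 1 sign for 13 of the 15 genes, QDPR and LAMP1 being the exceptions, and for 26.1% of all probes. These values entered the fit too, and the share among all 4100 calls was 84.6%, so the 13 of 15 is a description.

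**Figure D2:**
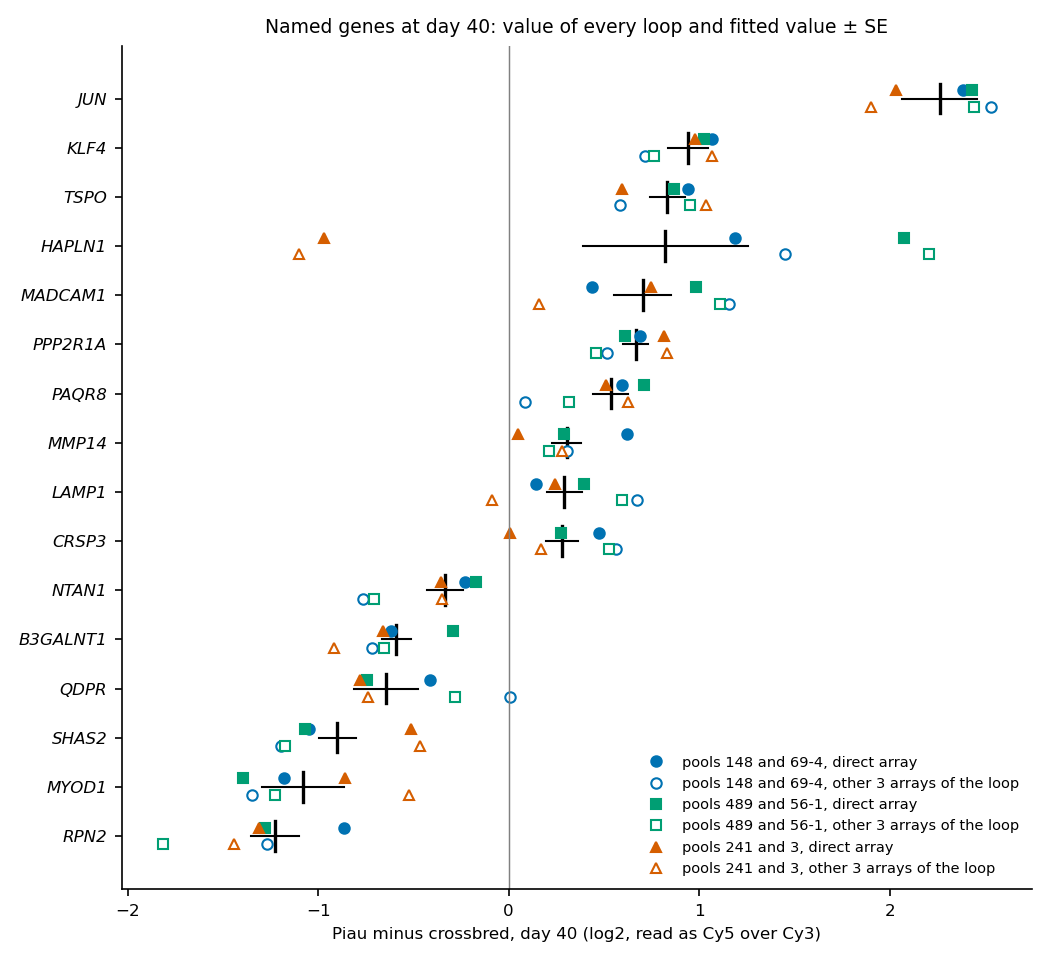
Piau minus crossbred at day 40 (log2, read as Cy5 over Cy3) for the 15 named genes past the threshold and HAPLN1, which did not pass. Filled symbols are the direct arrays, open symbols the values through the other 3 arrays of the loop, and the black bar the fitted value ± SE. JUN lies furthest to one side, RPN2 and MYOD1 furthest to the other, and the 2 values of HAPLN1 from pools 241 and 3 lie opposite to its other 4.

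Among the named genes that passed were 3 transcription factors, and JUN was the furthest from 0 of all 15. JUN, a subunit of the AP-1 factor that is induced within minutes by growth signals and stress, had values of 2.38 (Piau 148), 2.43 (Piau 489) and 2.03 (Piau 241) on the direct arrays. Through the other arrays of the loops it stood at 2.53, 2.44 and 1.90. The 6 values of JUN thus all lay far from 0, the lowest being both values of the pools 241 and 3, and the fitted value was 2.26 ± 0.20 (SE, limma adjusted p = 3.51e-05), a 4.80-fold difference between the breeds. KLF4, a zinc-finger factor that is also induced early by stress and serum and that controls differentiation in many epithelia, lay on the side of JUN. Its direct values were 1.07, 1.03 and 0.98 and the fitted value was 0.94 ± 0.11 (adjusted p = 0.000132). JUN and KLF4 were the 2 probes present from a list of 28 immediate early and stress genes, so no more can be said of that list.

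MYOD1, which commits cells to the myogenic lineage, lay on the other side. It stood at -1.18 (Piau 148), -1.39 (Piau 489) and -0.86 (Piau 241), with a fitted value of -1.08 ± 0.21 (adjusted p = 0.00373). The value through the other arrays was -1.35 and -1.23 in the first 2 loops and -0.52 for pools 241 and 3. MYOD1 did not pass without the loop of Piau 148 (-1.002, adjusted p = 0.0877), and did pass without either of the other loops. ACVR2B, a receptor of myostatin and activins and the other named probe of the myogenic list, was at 0.04 ± 0.06 (adjusted p = 0.73). The slow myosin heavy chain MYH7 had direct values of -0.48, -0.59 and 0.19, and its fitted value of -0.24 ± 0.32 (adjusted p = 0.70) was smaller than its error. LMCD1, a LIM-domain cofactor of muscle and heart, was at -0.15 ± 0.11 (adjusted p = 0.44).

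All 3 named genes of the endoplasmic reticulum, glycosylation and lysosome list passed, where 15 of all 178 named probes did (8.43%). They lay 2 on the negative and 1 on the positive side, with a median of -0.59 against -0.0016 over all probes. The list was written with earlier results of these data known, so this count and this median follow from the choice of members and are descriptions. Of the 64 named probes in any of the 18 lists, 12 passed, against 3 of the 114 in none of them. The tissue-restricted lists put together after the values were seen are not among the 18. RPN2, a subunit of the oligosaccharyltransferase that puts N-glycans on nascent proteins, had direct values of -0.87 (Piau 148), -1.28 (Piau 489) and -1.31 (Piau 241). Its indirect values were -1.27, -1.81 and -1.44, all beyond the smallest direct one, and the fitted value was -1.23 ± 0.13 (adjusted p = 7.34e-05), a 2.34-fold difference. B3GALNT1, which adds N-acetylgalactosamine to make the glycolipid globoside, stood at -0.62, -0.29 and -0.66 on the direct arrays and was fitted at -0.59 ± 0.07 (adjusted p = 0.000269). LAMP1, a heavily glycosylated protein of the lysosomal membrane, was on the side of JUN, at 0.29 ± 0.09 (adjusted p = 0.0437). Its direct values were 0.15, 0.39 and 0.24, but the indirect value for pools 241 and 3 was -0.09, and LAMP1 lost its call in 19 of 26 other settings. ST3GAL4, a sialyltransferase outside the list, did not pass at -0.26 ± 0.10 (adjusted p = 0.0842), nor did ACBD3, a Golgi scaffold protein, at -0.31 ± 0.11 (adjusted p = 0.0579). The glycan enzymes MGAT4C (-0.09 ± 0.10), B3GNT5 (-0.16 ± 0.08) and GAL3ST2 (-0.13 ± 0.21), also outside the list, did not pass either (limma adjusted p = 0.62, 0.19 and 0.75).

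In the list of matrix synthesis, adhesion and remodelling, 2 of 6 probes passed on the positive side and 1 on the negative side. Of all named probes 8.43% passed. The list was written with earlier results known, and with so few probes these counts are descriptions. Outside the list, the hyaluronidase HYAL3 (-0.10 ± 0.07) and the integrin subunit ITGA2B (0.01 ± 0.06) did not pass (limma adjusted p = 0.38 and 0.92). HAPLN1 and COL10A1, given below, are not in the list and did not pass either. SHAS2, a hyaluronan synthase, had direct values of -1.05 (Piau 148) and -1.07 (Piau 489), and of -0.51 with Piau 241. The indirect values were -1.20, -1.17 and -0.47. SHAS2 was therefore closer to 0 in the pools 241 and 3 by both routes, and its fitted value was -0.90 ± 0.10 (adjusted p = 0.000108), or -1.09 without that loop. MMP14, a membrane metalloproteinase that cleaves collagen and activates other proteinases, stood at 0.62, 0.29 and 0.05, with a fitted value of 0.30 ± 0.08 (adjusted p = 0.0147). MMP14 was at 0.20 without the array of Piau 148 (adjusted p = 0.0602) and at 0.31 without that of Piau 489 (adjusted p = 0.052). MADCAM1, an addressin that binds lymphocyte integrins, stood at 0.44, 0.98 and 0.75, with a fitted value of 0.70 ± 0.15 (adjusted p = 0.00552). For MADCAM1 the indirect value of pools 241 and 3 was 0.16, against 1.15 and 1.11 in the other loops, and without the loop of Piau 489 it did not pass (0.56, adjusted p = 0.12). The 3 other probes of the list, for the integrin subunit ITGB1 (0.13 ± 0.09), the desmosomal cadherin DSG1 (-0.08 ± 0.09) and the enamel proteinase MMP20 (-0.03 ± 0.11), did not pass.

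Among 4 probes of mitochondria, redox and amine metabolism, 1 passed on each side, where 8.43% of all named probes passed. The list was written with earlier results known, and with so few probes this count is a description. ATP5G1 (-0.07 ± 0.11) and ACADS (0.08 ± 0.15), mitochondrial genes outside the list, did not pass (limma adjusted p = 0.74 and 0.78). TSPO, a cholesterol- and porphyrin-binding protein of the outer mitochondrial membrane, had direct values of 0.94, 0.87 and 0.59 and was fitted at 0.83 ± 0.09 (adjusted p = 0.000116), a 1.78-fold difference. QDPR, the dihydropteridine reductase that regenerates tetrahydrobiopterin, stood at -0.41, -0.75 and -0.78, with a fitted value of -0.64 ± 0.17 (adjusted p = 0.0182). Through the other arrays, however, QDPR was at 0.0089 (Piau 148), -0.28 (Piau 489) and -0.74 (Piau 241), so only the pools 241 and 3 gave nearly the same value by both routes. QDPR did not pass without any one of the 3 loops (-0.82 without that of Piau 148, -0.64 without that of Piau 489 and -0.55 without that of Piau 241, adjusted p from 0.066 to 0.13). MAOA, which degrades monoamines, was at -0.19 ± 0.09 (adjusted p = 0.20), and CYBA, a subunit of the NADPH oxidase, at -0.07 ± 0.13 (adjusted p = 0.78).

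The other calls included genes of signalling and protein turnover. PPP2R1A, the scaffold subunit of protein phosphatase 2A, had direct values of 0.69, 0.61 and 0.81 and indirect values of 0.52, 0.46 and 0.83. It had the smallest SE of the 15 genes, and was fitted at 0.67 ± 0.07 (adjusted p = 5.86e-05). PAQR8, a membrane receptor for progestins, stood at 0.59, 0.71 and 0.51 directly and at 0.08, 0.32 and 0.62 through the other arrays, with a fitted value of 0.53 ± 0.09 (adjusted p = 0.00152). NTAN1, an amidase of the N-end rule pathway of protein degradation, showed the reverse pattern, with indirect values of -0.76, -0.70 and -0.35 further from 0 than direct ones of -0.23, -0.17 and -0.35 in the first 2 loops. Its fitted value was -0.34 ± 0.09 (adjusted p = 0.025), and it did not pass without the array of Piau 241 (-0.33, adjusted p = 0.0666). CRSP3 was fitted at 0.28 ± 0.09 (adjusted p = 0.037) from direct values of 0.47, 0.27 and 0.0081, and lost its call in 16 of 26 other settings.

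HAPLN1, the link protein that ties aggrecan to hyaluronan in cartilage, was the 1 named gene with a fitted value over 0.5 in size that did not pass. Its direct values were 1.19 (Piau 148), 2.07 (Piau 489) and -0.97 (Piau 241), and the indirect ones 1.45, 2.21 and -1.101. The 2 routes within a loop gave values closer to each other than the loops did. The fitted value of 0.82 ± 0.43 (adjusted p = 0.23) averaged over these, and it was 1.70 ± 0.26 without the loop of pools 241 and 3 (adjusted p = 0.00501). HAPLN1 was the only named gene among 27 probes at 0.5 or more in size on every direct array with the array of Piau 241 opposed to the others. For 24 of those 27 the indirect value of pools 241 and 3 lay on the same side as its direct value. Across all probes the direct and indirect values of these pools correlated at 0.78. The 27 were picked by the size of their direct values, so the 24 is a description. Probes with the array of Piau 148 or of Piau 489 opposed in the same way numbered 2 and 1. COL10A1, the collagen of hypertrophic cartilage, was at 0.01 ± 0.10, and HAPLN1 was the only probe of the 16 genes in the cartilage and connective tissue list. The part of cartilage RNA in the other results was not tested.

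The myeloid, erythroid, lymphocyte, adipocyte and endothelial marker lists had 16 entries, CAV1 standing in 2 of the lists. There were 2 calls among them, PAQR8 and MADCAM1, where 15 of all 178 named probes passed (8.43%). None of 8 myeloid probes passed in limma (2 at an unadjusted p under 0.05), with a median of 0.13 and fitted values from -0.0045 to 0.30. The highest were the leukotriene receptor CYSLTR2 (0.30 ± 0.13), the signalling adaptor TYROBP (0.28 ± 0.14) and the Toll-like receptor TLR10 (0.27 ± 0.12). CYSLTR2 was lower on the array of Piau 241 (-0.15) than on those of Piau 148 (0.31) and Piau 489 (0.59), and passed without that loop (0.52, adjusted p = 0.0196). The cathelicidin PR39, at 0.20 ± 0.21, stood at -0.21 and -0.26 on the direct arrays of Piau 148 and Piau 489 and at 0.71 on that of Piau 241. The embryonic globin HBE1, the only erythroid probe, was at 0.26 ± 0.14 (adjusted p = 0.24), and CD4 of T cells at -0.0041 ± 0.05. Of 4 probes in the lipid storage and adipocyte list, PAQR8 alone passed. PAQR8 is a progestin receptor, so its call is not read as one of an adipocyte marker. The lipid droplet protein PLIN1 was at 0.0053 ± 0.06. Of 2 endothelial probes MADCAM1 passed and CAV1, the main coat protein of caveolae, did not (0.10 ± 0.15). Fewer cells of a type and less RNA per cell cannot be told apart in such pools, and the part of cell composition in the results above was not tested.

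By limma, no call came from 9 probes of skin, epithelium and pigment (1 at an unadjusted p under 0.05), 8 listed of cytokines and chemokines with their receptors (0), 11 of growth factors and hormones with their receptors (0), or 2 of calcium-binding and membrane proteins (1). Their medians were -0.06, -0.07, 0.02 and 0.14. Of all 178 named probes 15 passed (8.43%), a share at which lists of this size may hold no call. The chemokine CCL27, which the list does not hold, was at -0.26 ± 0.10 (unadjusted p = 0.0213, adjusted p = 0.0879) and passed without the loop of pools 241 and 3 (-0.36, adjusted p = 0.033). S100A11, a calcium-binding protein of the last list, was at 0.28 ± 0.10 (adjusted p = 0.0731). The 4 probes of ASIP, the agouti signalling protein of coat colour, were fitted between -0.09 and -0.03. FGF9, a fibroblast growth factor, was at 0.26 ± 0.13 (adjusted p = 0.20). The interferon IFNA1 stood at -1.095 on the array of Piau 148 and at -0.20 and -0.13 on the others, with a fitted value of -0.28 ± 0.19. SRY, which lies on the Y chromosome, was at -0.17 ± 0.07 (adjusted p = 0.0982), and the sex of the pooled fetuses is not in the labels.

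Many named genes belong to tissues other than muscle, and lists of these were put together after the values were seen. In limma none of 10 germ cell and sperm genes passed (2 at an unadjusted p under 0.05), and their median was -0.07. The highest of them was PGK2, a glycolytic kinase of sperm, at 0.45 ± 0.18 (adjusted p = 0.11). PGK2 passed on the direct arrays alone (0.52, adjusted p = 0.0467) and without the loop of pools 241 and 3 (0.63, adjusted p = 0.00516). Nor did any of 13 nervous system and photoreceptor genes (2 at an unadjusted p under 0.05) or of 15 milk, saliva, gut and liver genes (0), with medians of -0.04 and 0.0021. At the 8.43% of all 178 named probes, lists of this size may hold few calls or none, so these counts are descriptions. The neuropeptide ADCYAP1 stood furthest from 0 there, at 0.41 ± 0.16 (adjusted p = 0.0889), from direct values of 0.79 (Piau 148), 0.91 (Piau 489) and -0.12 (Piau 241), and passed without that last loop (0.70, adjusted p = 0.0143). In all, 163 named probes did not pass, and 149 of them were fitted within 0.25 of 0. Signal over background was not known, so whether these genes were detected in either breed could not be checked.

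**Figure D3:**
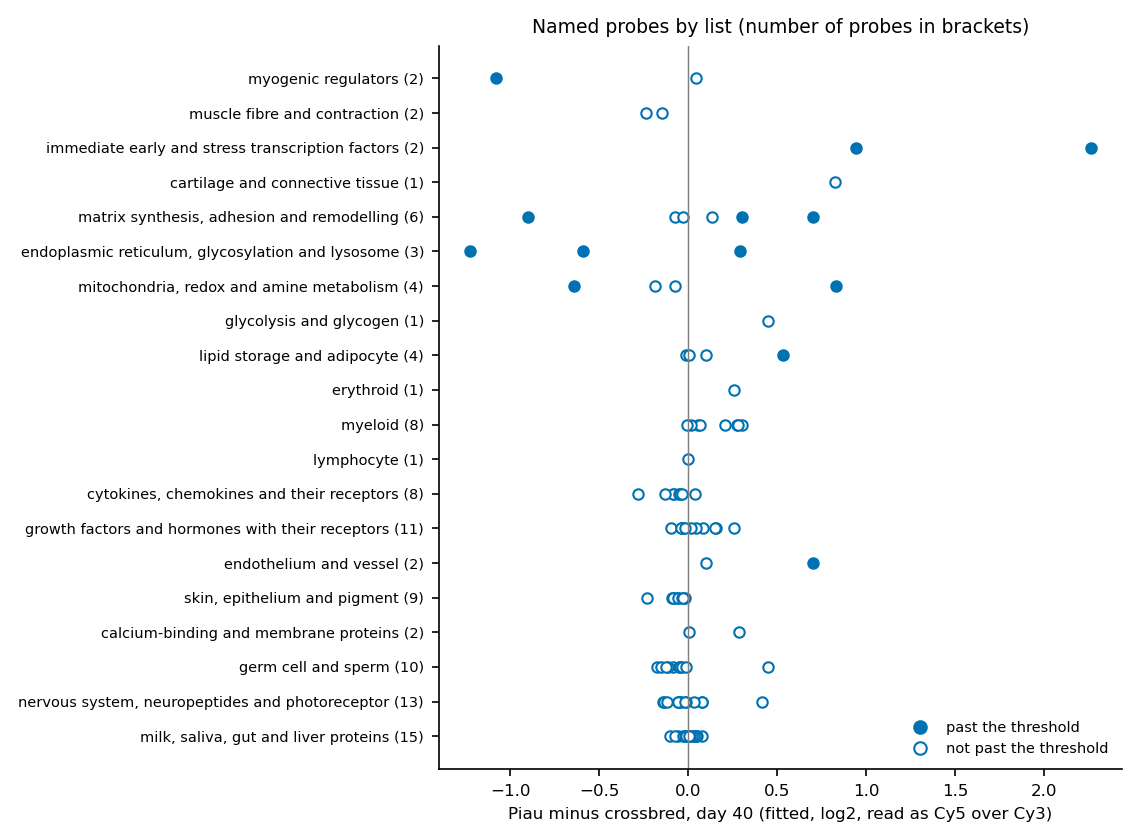
Fitted Piau minus crossbred values at day 40 (log2, read as Cy5 over Cy3) of the named probes, by gene list. Each circle is a probe, filled where it passed the threshold, and a gene may stand in more than 1 list. The immediate early genes JUN and KLF4 lie on the positive side, and MYOD1, RPN2 and SHAS2 on the negative side. The circles of tissue-restricted lists in the lower part, put together after the values were seen, are all open.

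The differences furthest from 0 belonged to probes without a symbol, whose genes the files used here do not give. Probe 14276 was fitted at 3.27 ± 0.46 (adjusted p = 0.000509), from direct values of 4.11 (Piau 148), 3.44 (Piau 489) and 1.47 (Piau 241). Probe 1868 was more even, at 3.47, 2.51 and 3.03, and was fitted at 2.98 ± 0.28 (adjusted p = 4.78e-05). On the other side, probe 13573 stood at -2.07, -2.66 and -3.95 (fitted -2.997 ± 0.25, adjusted p = 2.83e-05) and probe 20724 at -2.18, -2.68 and -3.58 (fitted -2.87 ± 0.25, adjusted p = 3.51e-05). The array of Piau 241 was thus the lowest of the 3 for probe 14276 and the furthest from 0 for both probes of the negative side.

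The breed difference at day 40 was set beside that at day 70, which came from the same fit. The pools of the 2 ages differ, but the loops link them, so both fitted values draw on shared arrays and the same dye term and are not independent. For all probes the SD of the fitted differences was 0.306 at day 40 and 0.288 at day 70, where 16.7% of probes passed (8.56% positive and 8.13% negative). JUN was fitted at 2.26 at day 40 and at 1.29 ± 0.20 at day 70. The difference between these, 0.97 ± 0.23, did not pass (adjusted p = 0.11). TSPO was at 0.83 at day 40 and at 0.26 ± 0.09 at day 70, a difference of 0.57 ± 0.11 (adjusted p = 0.0548), and of 0.66 without the loop of pools 241 and 3, which passed (adjusted p = 0.0261). The values of SHAS2 were -0.90 at day 40 and -0.43 ± 0.10 at day 70 (difference -0.47 ± 0.12, adjusted p = 0.12), and without that loop the difference was -0.62 and passed (adjusted p = 0.0265). With 1 estimate per loop neither passed (adjusted p = 0.28 for TSPO and 0.34 for SHAS2). PPP2R1A was nearly the same at both ages, at 0.67 and at 0.60 ± 0.07, with a difference of 0.07 ± 0.08. MMP14 likewise differed by 0.04 ± 0.09 between the ages.

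The 15 genes were chosen at day 40, which favours a larger value at that age. OCA2, a melanosomal transporter, had opposite signs, with -0.23 ± 0.10 at day 40 and 0.34 ± 0.10 at day 70, and the salivary lipocalin SAL1 stood at -0.06 ± 0.06 and at 0.21 ± 0.06. Neither difference passed, at -0.57 ± 0.12 for OCA2 (adjusted p = 0.0665) and -0.27 ± 0.07 for SAL1 (adjusted p = 0.13). That of OCA2 passed without the array of Piau 241 and Piau 308 (-0.64, adjusted p = 0.043) and without a pool effect (-0.58, adjusted p = 0.0383). Among all probes, 55 (0.265%) passed for the difference between the ages, 22 positive (0.106%) and 33 negative (0.159%). The count was 0 in limma with 1 estimate per loop (2318 at an unadjusted p under 0.05), and 5 to 143 when 1 array was left out. None of them was named, and 16 named probes had an unadjusted p under 0.05. Of those 55, 25 passed at day 40 but not at day 70, 14 at day 70 but not at day 40, and 16 at both ages.

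**Figure D4:**
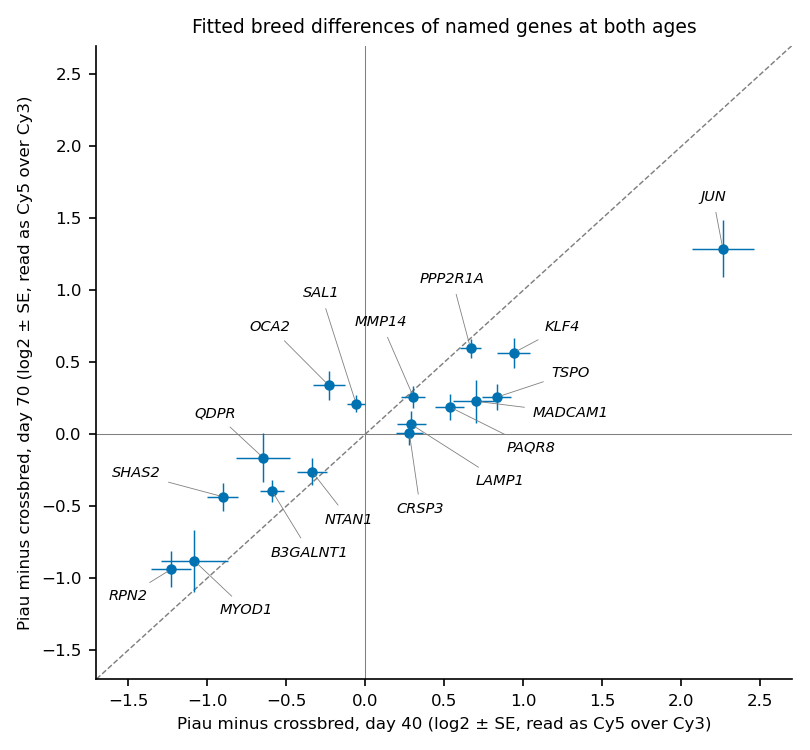
Fitted Piau minus crossbred values ± SE (log2, read as Cy5 over Cy3) at day 40 (horizontal) and day 70 (vertical) for the 15 genes past the threshold at day 40 and for OCA2 and SAL1. The dashed line marks equal values. JUN and TSPO lie below the line, and PPP2R1A and MMP14 close to it. OCA2 has opposite signs at the 2 ages, and SAL1 is at -0.06 ± 0.06 at day 40 and 0.21 ± 0.06 at day 70. Neither of these differences between the ages passed.

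The share of calls depended on where a probe stood in the numbering. The 20736 probe numbers divide into 48 runs of 432, and 173 of the 178 named probes lay at positions 387 to 390 of a run. Of the 192 probes at these positions 16 passed (8.33%), 1 of them among the 19 without a symbol. At positions 391 to 420, which follow directly, 33.5% of 1440 probes passed, and their median size was 0.22 against 0.11 over all probes. At positions 424 to 432 only 1 of 432 probes passed (0.231%), although their residual SD, with a median of 0.223, was not smaller than the 0.158 of positions 1 to 386. The labels give 20400 oligonucleotides, 336 fewer than the probes in the table, and the sources used here do not say which probes are controls. These positions were picked after the shares had been seen. By run, the share of calls lay between 9.03% and 27.3%, and the median breed difference between -0.07 and 0.05.

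**Figure D5:**
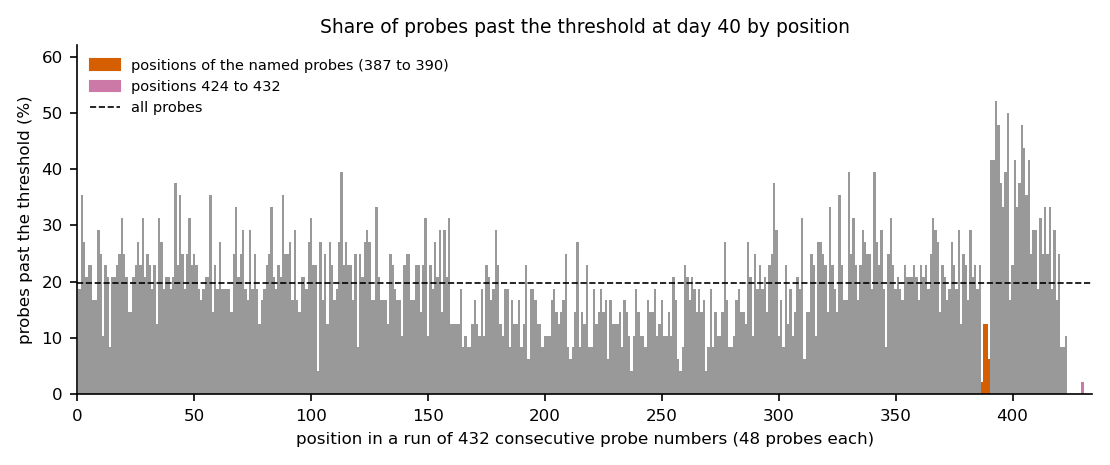
Share of probes past the threshold at day 40 (percent, vertical) at each of the 432 positions of a run of consecutive probe numbers (horizontal), with 48 probes per position. The dashed line is the share over all probes (19.8%). The named probes (orange, 8.33%) and positions 424 to 432 (pink, 0.231%) lie below it, and positions 391 to 420 above it (33.5%).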

How the data were processed

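The authors deposited 1 log ratio per probe and array, and per the series design text, fluorescence intensities were LOESS normalised and analysed with a mixed model. The deposited values were read as log2 ratios. The sources used here do not give the base, the numerator dye, the scanner, or any background correction or filter. The number of arrays limits the precision. Symbols came from the platform annotation, and the 178 Entrez identifiers were looked up in RefSeq (Sscrofa11.1; all matched), used for names alone. No sequence or coordinate is given, since no probe sequence was used here.

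Tests used limma 3.58.1 in R 4.3.3, two-sided, after generalised least squares whitening, with a pool variance of 0.119 times the array variance (restricted maximum likelihood over all probes), residual degrees of freedom of 9 (prior 3.08), and p-values adjusted by Benjamini-Hochberg over 20736 probes, threshold 0.05. Errors are standard errors. The procedure was also run on data simulated from the fitted model itself, which cannot show whether that model holds for these arrays. The dye effect is the mean of the 12 loop arrays, which makes the gaps between direct and indirect values of the 3 loops sum to 0 when the gap of the loop of Piau 489 is turned, so the 3 gaps are not independent. Probes named in the text are those with a symbol that passed at day 40, those at 0.5 or more that did not, list members, all probes of ASIP, the 2 unnamed probes furthest from 0 on each side, and the 5 named genes with the smallest p for the difference between ages. Other probes named (COL10A1, SRY, ADCYAP1, ACBD3, ST3GAL4, MGAT4C, B3GNT5, GAL3ST2, PR39, PLIN1, CYBA, ITGB1, DSG1, MMP20, CCL27, KLK1, PI3, ATP5G1, ACADS, HYAL3, ITGA2B, 5652 and 12430) were chosen after their values were seen. Members, lists and rules were chosen with earlier results of these data known. Of 18 lists, that of nerve and Schwann cells had no named probe.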

Additional observations from a re-analysis of the deposited data

Results flagged for a closer look

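The breed difference at day 40 differed from that at day 70 for 55 probes by the interaction of the limma fit, 22 with a positive and 33 with a negative difference, and 2363 had an unadjusted p under 0.05. Probe 12430 was fitted at 0.37 ± 0.10 at day 40 and 1.78 ± 0.10 at day 70 (difference -1.40 ± 0.12, adjusted p = 0.00102). Probe 5652 was at 1.34 ± 0.19 at day 40 and 0.05 ± 0.19 at day 70 (difference 1.28 ± 0.23, adjusted p = 0.049). Without the loop of pools 241 and 3 there were 208 such probes, and with direct arrays only there were 0 (1751 at an unadjusted p under 0.05).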

How the results depend on the processing

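The number of probes past the threshold at day 40 was 2740 to 4220 when 1 array was left out (13 fits), against 4100. It was 2175 from the 3 direct arrays alone, 2241 with 1 estimate per loop (the loop as a block) and 2287 without the dye term. Without the loops of Piau 148, Piau 489 and Piau 241 it was 1996, 1791 and 3110. From the other 10 arrays alone, with no direct array, it was 169. In every setting that kept a direct array, all of the 4100 probes that were fitted kept their sign, and 11 turned without direct arrays. The 1 call at positions 424 to 432 was not fitted when these positions were left out. The day 70 count was 2385 to 3663 when 1 array was left out, 1944 without the dye term, and 1519, 1752 and 2214 without the loops of Piau 148, Piau 489 and Piau 241. For the difference between the ages the count was 5 to 143 when 1 array was left out, with 143 without the array of Piau 241 and crossbred 3. It was 0 from direct arrays alone and with 1 estimate per loop (1751 and 2318 at an unadjusted p under 0.05 in limma), 18 without the dye term, 198 without a pool effect, 29 with arrays centred and scaled, 7 without moderation, and 0 (1478 unadjusted), 1 and 208 without the loops of Piau 148, Piau 489 and Piau 241. The cause of these changes was not tested.

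In 26 other settings none of the 15 genes, nor HAPLN1, changed sign. RPN2, SHAS2 and B3GALNT1 kept their calls in all, and JUN, PPP2R1A, TSPO, KLF4 and PAQR8 lost theirs only without the direct arrays (adjusted p = 0.0652, 0.0921, 0.0541, 0.18 and 0.47). MYOD1 and MADCAM1 lost theirs in 2 settings each, NTAN1 in 7, MMP14 and QDPR in 8 each. HAPLN1 passed in 2, without the array or the loop of pools 241 and 3 (1.42 and 1.70). CCL27, KLK1 and PI3 passed without that loop (-0.36, -0.25 and 0.29), and ACBD3 without that array (-0.39). Leaving out positions 424 to 432, an addition made after the data were seen, gave 4140 calls. The correlation of direct with indirect means across probes was 0.83, and 0.82 with arrays centred and scaled. A filter on dim probes could not be run without intensities, and signal over background was unknown.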
